A study of Sorghum bicolor with 14 samples.

Results

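The secondary wall cellulose synthases of sorghum are 3 loci, Sobic.001G224300, Sobic.002G205500 and Sobic.003G296400. They were found by their annotation IDs, and each had exactly 1 row among the 34755 loci of a development table and 1 row among the 32726 loci of a drought table. Expression was measured by RNA sequencing of the middle internode of the stem in the grain sorghum variety M35-1, with 14 libraries in 7 groups of 2. Field-grown plants gave 4 groups: floral initiation, booting (the panicle still enclosed by the leaf sheath), and, during grain filling, milky stage and then soft dough. The other 3 groups were pot-grown, 1 plant to a pot, with watering stopped at flag leaf stage. They were sampled at booting once soil moisture had reached about 13% (D1), 7% (D2) or 2% (D3). A watered pot group was not analysed here, and all groups are of 1 variety. Each group has 1 value per locus, in FPKM (sequenced fragments scaled to transcript length in kilobases and to 1000000 mapped fragments), taken as the authors' pooled value of its 2 libraries. No difference below therefore has a replicate check, and no error or p-value can be given.

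Cellulose is spun out at the plasma membrane by complexes of cellulose synthase (CESA) proteins, which take UDP-glucose from the cytosol and extrude glucan chains that crystallise into microfibrils. Growing cells use 1 set of CESA isoforms for the thin primary wall. Cells that have stopped expanding, such as xylem vessels and the sclerenchyma fibres around vascular bundles and under the stem surface, use another set for the thick secondary wall. In Arabidopsis and rice the secondary wall needs 3 different isoforms together, and loss of any of them gives collapsed xylem or a brittle stem. The sources used here do not say which of these isoforms each of the 3 sorghum loci encodes.

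The 3 loci lie on different chromosomes. Sobic.001G224300 is on chromosome 1 from 21485581 to 21489706, Sobic.002G205500 on chromosome 2 from 59706938 to 59711587, and Sobic.003G296400 on chromosome 3 from 62851273 to 62857742. These are the ranges printed in the file, the same in both tables, and span the whole gene model. No genome build is named in the sources used here. No other locus shares one of the 3 printed ranges. The IDs of the files could not be matched to gene names: 0 of 34129 different IDs were found in the RefSeq table used here, so the internode's identity was not checked against marker genes and no other gene of wall synthesis was looked up by name.

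All 3 transcripts were abundant at floral initiation and booting, several-fold lower during grain filling, and at most 4.31 FPKM in the drying pots. Along the stages, from floral initiation to soft dough, Sobic.001G224300 had 91.3, 55.2, 19.4 and 13.7 FPKM, and it had 4.28, 0.642 and 0.483 FPKM from D1 to D3. Sobic.002G205500 had 162, 70.8, 27.5 and 23.8 FPKM at the same stages, and 2.97, 0.108 and 0.734 FPKM in the drought groups. Sobic.003G296400 had 211, 122, 41.1 and 44.2 FPKM, and 4.31, 0.449 and 1.83 FPKM. Within development, floral initiation was the highest and booting the second highest column for each of the 3 loci, and every drought column was below every development column. The order of milky stage and soft dough, and of D2 and D3, differed between loci. In bulk tissue, fewer cells that make secondary wall and less transcript per cell cannot be told apart.

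**Figure D1:**
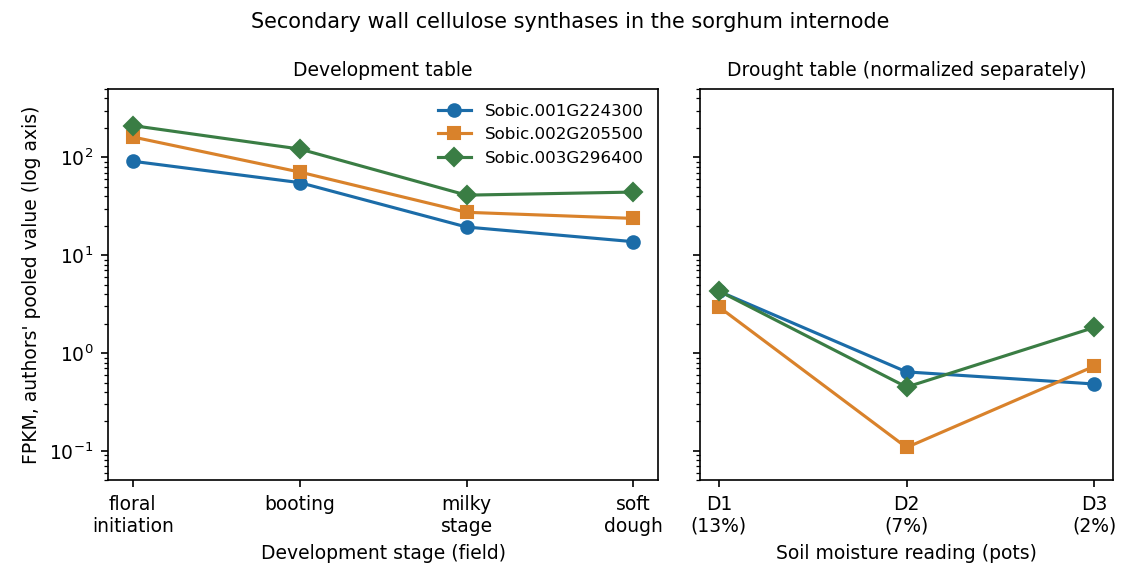
FPKM of the 3 loci on a log axis, by development stage in the field (left) and by soil moisture reading in pots (right); each point is the authors' pooled value of 2 libraries, so there are no error bars, and the tables were normalized separately. From floral initiation to soft dough the lines fall from between 91.3 and 211 FPKM to between 13.7 and 44.2 FPKM; in the pots none is above 4.31 FPKM.

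Their standing among all loci moved with the level. At floral initiation only 464 of 34755 loci were above Sobic.003G296400, 672 were above Sobic.002G205500 and 1286 above Sobic.001G224300. At soft dough 2846, 5101 and 7568 loci were above them, in the same order. Sobic.003G296400 still exceeded 91.8% of loci there, against 78.2% for Sobic.001G224300. At D2 the 3 loci exceeded only 46.0%, 38.2% and 48.3% of the 32726 loci of the drought table, many of which are listed at 0. Of all FPKM in a column, the 3 together made up 0.0716%, 0.0344%, 0.0126% and 0.0125% in stage order, and 0.00164%, 0.000180% and 0.000439% from D1 to D3.

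Booting against floral initiation asks what differs at the first step, as the panicle develops. Each of the 3 loci was lower at booting, at 60.5% of its earlier FPKM for Sobic.001G224300, 43.8% for Sobic.002G205500 and 57.6% for Sobic.003G296400. A locus was called when log2(FPKM + 1) differed by at least 1 and the higher column held at least 1 FPKM. By that rule 1 of the 3, Sobic.002G205500, was lower (log2 difference -1.18), and the other 2, at -0.72 and -0.79, were not called. Over all 17889 measured loci, 4.14% were called lower and the median log2 difference was 0.03. A difference at least as low as that of Sobic.002G205500 was found at 467 other loci. Library titles at booting and both later stages end in 2 and all others in 1, with no label explaining the digit. Digit and group cannot be told apart in this comparison, in the one spanning all of development, or between drought groups and booting.

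Milky stage against booting, the step across flowering, held the largest fold of the 3 development steps for each locus and carried all 3 past the call threshold. Sobic.001G224300 was 2.84-fold lower at milky stage, Sobic.002G205500 2.58-fold and Sobic.003G296400 2.96-fold, with log2 differences of -1.46, -1.34 and -1.54. These folds are close to each other, so the proportions of the 3 transcripts were nearly kept over this step. All 3 were called lower, where 14.0% of 18209 measured loci were, with a median log2 difference of -0.02 over all of them. Between 1220 and 1606 other loci were lower by at least as much as one of the 3, so a difference of this size was not rare at this step.

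The last step, from milky stage to soft dough, held the smallest fold of the 3 development steps for each locus. Sobic.001G224300 was at 70.8% of its milky stage FPKM, Sobic.002G205500 at 86.6% and Sobic.003G296400 at 108%. None of the 3 was called, where 4.27% of 17947 measured loci were called lower and 7.55% higher. Their log2 differences were -0.47, -0.20 and 0.10, beside a median of -0.01 over all measured loci. The median absolute difference of all measured loci was 0.34, which Sobic.001G224300 exceeded and the other 2 did not. The sign for Sobic.003G296400 was opposite to that for the other 2.

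Over the whole span, soft dough against floral initiation, the 3 loci were 6.64-fold (Sobic.001G224300), 6.80-fold (Sobic.002G205500) and 4.78-fold (Sobic.003G296400) lower. Their sum went from 464 FPKM to 248, 88.0 and 81.7 FPKM along the stages, a 5.68-fold difference. The log2 differences were -2.65, -2.71 and -2.23, and all 3 were called, where 14.0% of 18568 measured loci were called lower and the median was 0.03. Only 1.70%, 1.53% and 2.92% of the measured loci were lower by at least as much.

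With the soil at about 7% moisture instead of 13% (D2 against D1), all 3 loci were lower again, from levels that were already low. Sobic.001G224300 went from 4.28 to 0.642 FPKM, 6.68-fold lower, and Sobic.003G296400 from 4.31 to 0.449 FPKM, 9.60-fold lower. Sobic.002G205500 went from 2.97 to 0.108 FPKM, 27.4-fold lower. On the log2(FPKM + 1) scale, which understates changes at such levels, the differences were -1.69, -1.87 and -1.84. All 3 were called lower, where 4.92% of 16865 measured loci were and the median difference was 0.00. Between 150 and 206 other loci were lower by at least as much as one of the 3. The calls depend on how low values are treated: with a pseudocount of 5 the log2 differences were -0.72, -0.77 and -0.64 and none was called, and with a filter at 5 FPKM none of the 3 was measured.

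The step from about 7% to 2% soil moisture (D3 against D2) parted the 3 loci. Sobic.002G205500 had 0.734 FPKM at D3, 6.78 times its D2 value, and Sobic.003G296400 had 1.83 FPKM, 4.07 times its D2 value. Sobic.001G224300 had 0.483 FPKM, 75.2% of its D2 value. Only Sobic.003G296400 reached 1 FPKM in either column, so it alone was measured, and its log2 difference of 0.96 was just under the call threshold. None of the 3 was called, where 5.51% of 16739 measured loci were called higher and 5.12% lower. With a pseudocount of 0.1, Sobic.003G296400 had a log2 difference of 1.81 and was called higher.

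From D1 to D3, over the whole drying, Sobic.001G224300 was 8.87-fold lower, Sobic.002G205500 4.04-fold and Sobic.003G296400 2.36-fold. Sobic.001G224300 and Sobic.002G205500 were called lower (log2 differences -1.83 and -1.19) and Sobic.003G296400, at -0.91, was not, where 8.10% of 17045 measured loci were called lower and the median was 0.01. With a pseudocount of 0.1 Sobic.003G296400 was called as well, at -1.19. With a pseudocount of 5 none was called, the difference of Sobic.001G224300 being -0.76 and that of Sobic.002G205500 -0.47. The sum of the 3 was 11.6, 1.20 and 3.04 FPKM from D1 to D3.

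The number of fragments behind the drought values could only be gauged roughly. The depth is unknown, as no library totals were used. FPKM multiplied by length in kilobases has a smallest non-zero step in each column (its 1st percentile over loci of at most 3000 bp), which may be 1 fragment in 1 library. In such steps Sobic.002G205500 had 42.7 at D2, 205 at D3 and 778 at D1. From D1 to D3 the values were 997, 224 and 120 for Sobic.001G224300, and 1573, 246 and 710 for Sobic.003G296400. These are neither counts nor strict limits. The printed range of each locus is longer than the spliced transcript, which raises them. The step was itself taken from printed ranges and may hold more than 1 fragment, which lowers them. The step differed between columns, with 84.7 steps to 1 kb at 1 FPKM at D2, 56.4 at D1 and 60.1 at D3.

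**Figure D2:**
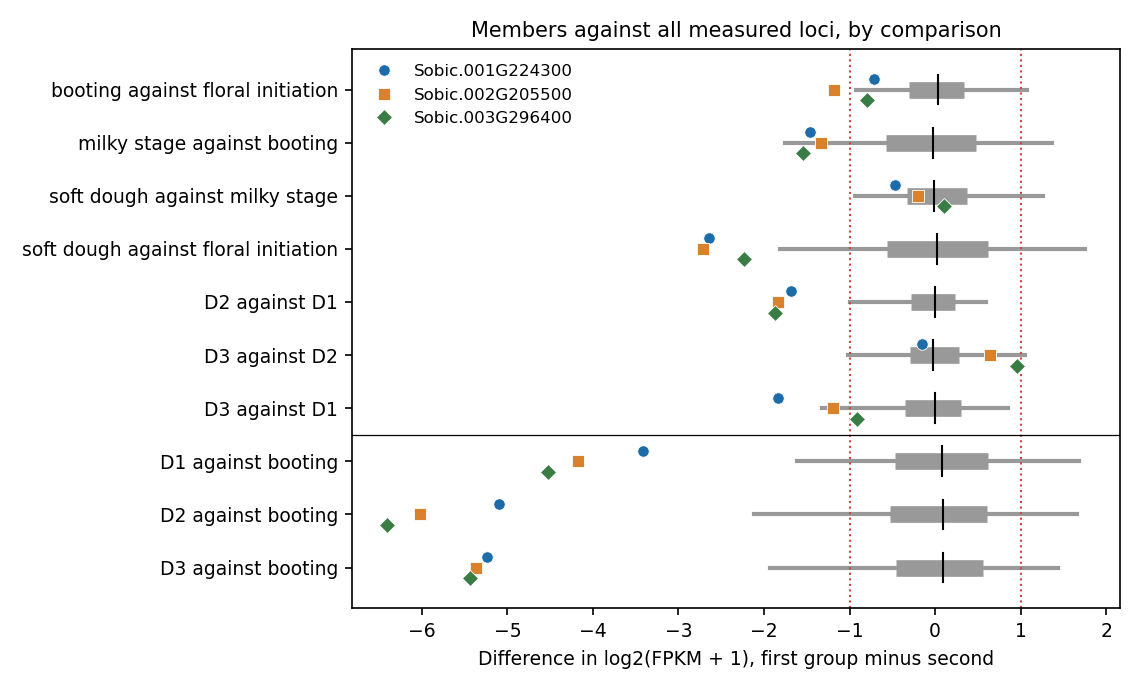
Difference in log2(FPKM + 1), first group minus second, in 10 comparisons; coloured points are the 3 loci, black ticks the median of all measured loci, thick and thin grey bars their 25th to 75th percentile and their 5th to 95th percentile, dotted red lines the call threshold, and comparisons below the black line cross the separately normalized tables. The 3 points lie left of the thin grey bar for soft dough against floral initiation and D2 against D1, and farthest left, between -3.41 and -6.40, for the drought groups against booting.

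Set beside field booting, the stage at which the pot plants were taken, the drought groups had little of any of the 3 transcripts. At D1, with the soil still at about 13%, Sobic.001G224300 had 7.76% of its booting FPKM, Sobic.002G205500 4.19% and Sobic.003G296400 3.54%. At D2 the shares were 1.16%, 0.153% and 0.369%, and at D3 0.874%, 1.04% and 1.5%. The tables were normalized separately. Growing in a pot, lack of water, table and title digit cannot be told apart in this contrast.

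Among loci whose IDs and printed range agree between the tables, few differed as much from booting. For D1 the log2 differences were -3.41 for Sobic.001G224300, -4.18 for Sobic.002G205500 and -4.53 for Sobic.003G296400. All 3 were called lower, where 25.6% of 12961 measured loci were called in either direction and 1550 of them lower, and 85, 44 and 28 other loci were lower by at least as much. For D2 the differences were -5.10, -6.02 and -6.40, all 3 called lower where 28.8% of 12843 measured loci were called in either direction and 1986 lower, with 35, 11 and 7 other loci lower by at least as much. For D3 they were -5.24, -5.37 and -5.44, all 3 called lower where 23.8% of 12785 measured loci were called in either direction and 1684 lower, with 21, 18 and 15 others. The medians over all measured loci were 0.08, 0.09 and 0.10. These 3 comparisons share the booting column and are not independent of each other.

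The closest measured locus on each side of the 3 was set beside them, a comparison chosen after the values were seen. None of these 6 loci had the development course of its neighbour, and 1 had a similar drought course. Sobic.001G224400 begins 646 bp after Sobic.001G224300 and had 84.3, 98.9, 216 and 218 FPKM along the stages, 171, 145 and 168 FPKM in the drought groups. On the other side of the same locus, Sobic.001G224200 had 103 FPKM at floral initiation and 220 at soft dough. Sobic.002G205600, beginning 331 bp after Sobic.002G205500, stayed between 0.527 and 2.09 FPKM in all 7 columns. The closest measured locus before Sobic.003G296400, Sobic.003G296300, had 20.8 FPKM at booting and 61.3 at D1. Sobic.002G205300, before Sobic.002G205500, had 14.1, 33.2, 32.7 and 7.58 FPKM along the stages and was the only one of the 6 lower at soft dough than at floral initiation (log2 difference -0.82, not called). Sobic.003G296600, after Sobic.003G296400, had 7.90, 11.5, 17.7 and 18.4 FPKM along the stages. In the drought groups it had 9.29, 3.96 and 8.93 FPKM, so that it was called lower at D2 than at D1 (-1.05) and higher at D3 than at D2 (1.00). Of the 6, it alone was lower at D1 than at booting.

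How tightly the 3 move together was first read from their proportions, which FPKM allows since it is per length. Sobic.003G296400 was the most abundant of the 3 at every development stage, with 45.5% to 54.1% of their summed FPKM, and Sobic.001G224300 the least, with 16.8% to 22.3%. Sobic.002G205500 had between 28.6% and 34.8%. The sum differed 5.68-fold between the ends of development, while the ratio of Sobic.003G296400 to Sobic.001G224300 stayed between 2.12 and 3.21, that of Sobic.002G205500 to Sobic.001G224300 between 1.28 and 1.77, and that of Sobic.003G296400 to Sobic.002G205500 between 1.31 and 1.86.

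In the drought groups the proportions varied more. At D1 Sobic.001G224300 and Sobic.003G296400 were level, with 37.1% and 37.3% of the sum. At D2 Sobic.001G224300 had 53.5% and Sobic.002G205500 9.03%, and at D3 Sobic.003G296400 had 60.0% and Sobic.001G224300 15.9%. The ratio of Sobic.003G296400 to Sobic.001G224300 was 1.01, 0.700 and 3.78 at D1, D2 and D3. In the same order, that of Sobic.002G205500 to Sobic.001G224300 was 0.693, 0.169 and 1.52. That of Sobic.003G296400 to Sobic.002G205500 was 1.45, 4.15 and 2.49. At sums of 1.20 and 3.04 FPKM these ratios rest on low values, and what sets them was not tested.

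**Figure D3:**
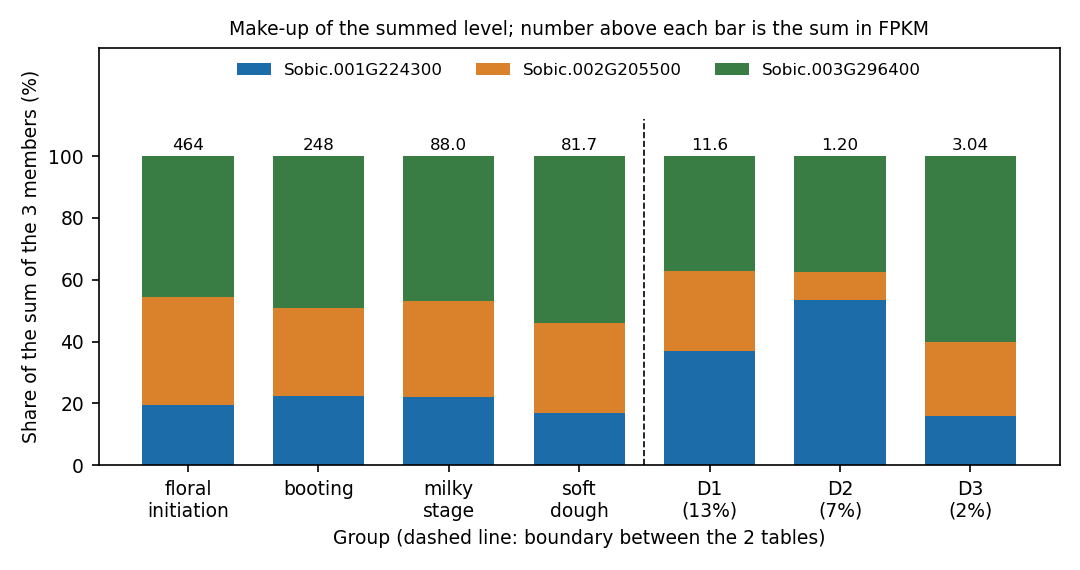
Share of each of the 3 loci in their summed FPKM, in percent, in the 7 groups, with the sum in FPKM above each bar; the dashed line separates the development and drought tables. Across development the shares of Sobic.001G224300 stay between 16.8% and 22.3%, while in the drought groups they run from 15.9% to 53.5%.

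Likeness of course was then measured over the 7 columns as the root mean square difference between profiles of log2(FPKM + 1), each centred on its own mean within each table. The closest pair was Sobic.002G205500 and Sobic.003G296400, at 0.17 log2 units. Each was the locus nearest to the other among 10805 loci with at least 5 FPKM in their highest column. That place depends on the scale: the lowest rank of one member from another was 2 with a pseudocount of 5 and 3 with no pseudocount. Sobic.001G224300 and Sobic.002G205500 were 0.27 apart and each ranked 4 from the other. Sobic.001G224300 and Sobic.003G296400 were 0.36 apart and each ranked 24. The order of these distances depends on the pseudocount. Without one, the FPKM values place Sobic.001G224300 farther from Sobic.002G205500 than from Sobic.003G296400. These are descriptions over 7 pooled columns, with no test.

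The 4 development columns and the 3 drought columns gave different degrees of likeness. Over development alone the 3 distances lay between 0.19 and 0.22, and each locus ranked between 21 and 95 from the others. Over the drought columns alone, Sobic.002G205500 and Sobic.003G296400 were 0.14 apart, with ranks of 29 and 21. Sobic.001G224300 was 0.34 and 0.49 from them, with ranks of 183 to 546. The pseudocount of 1 compresses these distances, as all 3 loci were below 1 FPKM at D2. The FPKM ratio of Sobic.003G296400 to Sobic.002G205500 was 1.45, 4.15 and 2.49 from D1 to D3. With no pseudocount, Sobic.002G205500 stood apart at D2 against D1, at -4.78, beside -3.26 for Sobic.003G296400 and -2.74 for Sobic.001G224300. The profiles differ in sign at D3 against D2, where the FPKM of Sobic.001G224300 was lower and that of the other 2 higher, although none of the 3 was called at that step and only Sobic.003G296400 was measured. The ranks also depend on the scale: with no pseudocount, which gives the low drought values full weight, the mean distance over the 3 pairs went from 0.27 to 0.67 log2 units and the highest rank from 24 to 348.

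**Figure D4:**
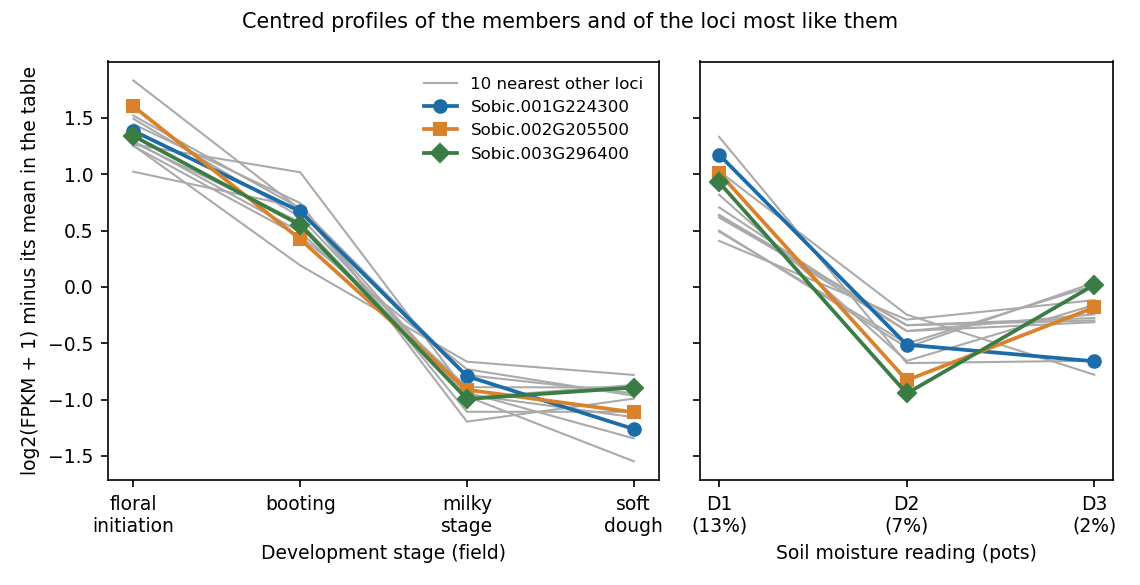
Profiles of log2(FPKM + 1), each centred on its mean within the table, for the 3 loci (coloured) and the 10 other loci nearest to their mean profile (grey), by development stage (left) and soil moisture reading (right); each point is 1 pooled value. All lines fall from floral initiation to milky stage, and at D3 the line of Sobic.001G224300 stays low while those of the other two turn upward.

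The loci whose course was most like the mean profile of the 3 were named by a fixed number, the 10 nearest with a single ID, by the same distance over the same 7 columns. The nearest was Sobic.009G162500, on chromosome 9 from 51943204 to 51948939, at 0.19 log2 units. It was closer to the mean than Sobic.001G224300 itself, at 0.20. It had 121, 65.9, 21.4 and 18.5 FPKM along the stages and 9.26, 1.55 and 1.59 FPKM in the drought groups. Next came Sobic.007G126800, Sobic.001G108100, Sobic.001G336700, Sobic.001G099300, Sobic.003G356900, Sobic.005G229100, Sobic.002G365700, Sobic.006G053000 and Sobic.004G351200, at distances of 0.23 to 0.32. The files give no names for these IDs.

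On the log2(FPKM + 1) scale the 10 loci shared the shape, by the choice made, but not the level or the size of the gap between field and pots, which the centring removes. Their folds varied more. Floral initiation was 4.07 to 809 times soft dough, against 4.78 to 6.80 times for the 3 cellulose synthase loci. At D2 against D1, 6 of the 10 were called lower, where 4.92% of all measured loci were. The pseudocount of 1 compresses folds at low FPKM, as at Sobic.001G099300, with 0.00645 FPKM at soft dough. Sobic.001G336700 had 72.9 FPKM at floral initiation and 17.9 at soft dough, 58.3 at booting and 6.07 at D1. Sobic.002G365700 had 75.6 and 13.2 FPKM at the ends of development, 46.2 at booting and 5.85 at D1. Sobic.003G356900 had 15.7 FPKM at floral initiation and was higher at D1 (17.4 FPKM) than at booting (8.56 FPKM). Of the 10, 6 were called lower at D1 than at booting and 2 were higher in FPKM at D1. The largest ratio of booting to D1 among them was 9.60, at Sobic.001G336700, against 12.9, 23.9 and 28.3 for the 3 cellulose synthase loci.

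Some of the calls that all 3 share were uncommon in combination. Of 11719 loci measured in each of milky stage against booting, D2 against D1 and D1 against booting, 113 were called lower in all of these comparisons, or 0.964%, and the 3 cellulose synthase loci are among the 113. The combination was read off the 3 loci themselves, so their presence there is no finding. At booting, 27 of the 113 loci had a higher FPKM than Sobic.003G296400, 47 than Sobic.002G205500 and 56 than Sobic.001G224300.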

How the data were processed

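Per the file headers, the authors deposited FPKM: 4 columns in a development table and 3 in a drought table, with separate locus models and normalization. The labels of both libraries of a group point to 1 shared column, which was treated as pooled. The sources used here do not say whether the 2 libraries came from separate plants. Tools listed in the submitters' processing notes, with no role stated, are HISAT2 2.0.5, Bowtie2 2.2.9, Cuffdiff and cutadapt 1.8.1. Total RNA (a modified trizol extraction) went into stranded libraries, per the labels' protocols. Neither a strand setting for counting nor a genome build is given in the sources used here.

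Members were read by ID with Python 3.11.15 and pandas 2.3.3. Differences are of log2(FPKM + 1), with a pseudocount of 1, and understate changes of low loci. A locus counted as measured with at least 1 FPKM in the higher column, and as called when the difference was at least 1. Values across tables were compared over the 26825 loci with the same IDs and range. Likeness used the loci of these with at least 5 FPKM in the highest column. Named loci are the 3 members, the 10 nearest profiles, and flanking loci chosen after their values were seen. The calling, ranking and rescaling steps were tested on simulated data. Changes were planted only at loci with at least 5 FPKM, and planted profiles were raised well above the members' drought values. The simulation therefore did not cover levels as low as those of the members in the drought groups. Planned lists of wall genes and promoter motifs were not run, since IDs matched no names and no sequences were used here. The members and lists were chosen with earlier results of these data known.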

Additional observations from a re-analysis of the deposited data

How the results depend on the processing

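Of 240 recomputed log2 differences of single loci (3 loci, 10 comparisons, 8 alternatives), 225 kept their direction and side of the call threshold, 10 lost the call, 5 gained one and 0 called differences changed sign. Of the 225, 30 came from using no filter and 25 from the filter at 5 FPKM. By construction these settings leave the difference itself unchanged. Loci unmeasured and uncalled in both settings also count among the 225. With a pseudocount of 5 or a filter at 5 FPKM, 0 of the 3 loci were called in D2 against D1 and 0 in D3 against D1; a larger pseudocount shrinks every difference and the filter leaves the loci unmeasured, by construction. With a pseudocount of 0.1, columns rescaled to the same sum, or no pseudocount (added after seeing the data), 1 locus was called in D3 against D2, Sobic.003G296400, higher. The rescaling to the same sum raised the D2 and D3 columns from sums of 666300 and 693073 FPKM to 1000000. The pseudocount of 1 therefore weighed less there, as it does when made smaller. Counts of members in the other 7 comparisons stayed within 1.5 times under all alternatives run. The mean distance between the 3 profiles, 0.27 log2 units as reported, was 0.52 with a pseudocount of 0.1, 0.15 with 5 and 0.67 with no pseudocount. It was 0.33 with columns rescaled to the same sum, 0.26 with median-of-ratios size factors and 0.26 without the 50 most abundant loci. Over the development columns it was 0.20, and over the drought columns 0.32. A factor common to a column cancels between centred log2 profiles, so the rescalings moved the distance only through the pseudocount. The filter at 5 FPKM is already the one used for likeness. Planned lists of wall genes and promoter motifs were not run. Rescaling moved the median log2 difference of all loci at booting against floral initiation from 0.03 to -0.11, both for the same sum and without the 50 loci; no call of a member depended on it. No paired analysis was possible because each group has 1 pooled column, and no replicate could be left out for the same reason. Depth is unknown, so no counting error could be given.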
